A study of Mus musculus with 10 samples.

Results

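The region examined here was the stretch of mouse chromosome 10 that surrounds Dusp6, and the genes described are its neighbours. Members were chosen by their position and level: gene start between 89263231 and 109263231, which is within 10 Mb of the Dusp6 start at 99263231 (build GRCm38), and a mean of at least 0.1 FPKM over the 10 spleen libraries. Of 54532 genes in the table, 341 lay in the window, 254 of them had a mean under 0.1 FPKM (185 had 0 reads in every library), and 87 reached it. Dusp6 itself and 8 named neighbours (Lta4h, Snrpf, Lum, Dcn, Kera, Epyc, Socs2 and Kitl) were left out by the rule, which left 80 members among the 21296 genes tested. The level that chose the members was the mean over both genotypes, from 0.111 to 101 FPKM with a median of 1.55. It was at least 0.1 FPKM in both groups for 72 members, in DUSP6 KO alone for 7 and in WT alone for 1. Just inside the limit were Gm48372 (0.111 FPKM), Nr1h4 (0.113) and Ppfia2 (0.117), and just outside it were 4732465J04Rik (0.0998), Gm47081 (0.0965) and Gm16155 (0.0785).

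Spleen RNA was measured in 5 DUSP6 KO mice, which carry the Dusp6tm1Jmol allele, and in 5 WT C57BL/6J mice, both purchased from the same supplier. All 10 mice had KRN serum-induced arthritis (KSIA), a joint inflammation brought on by transferred serum of arthritic mice (100 µL on days 0 and 2), and spleens were taken at day 9. The study's methods give an age of 8 to 12 weeks. The sample labels call the genotype a knockdown, while the protocol and the study call it a knockout. The treatment text speaks of males and females, but Xist reached at most 0.0206 FPKM and Ddx3y was at 14.4 to 18.6 FPKM in every library.

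DUSP6 is a phosphatase that removes activating phosphates from ERK kinases, and its gene is itself switched on by ERK signalling. In a mouse line made by gene targeting, the DNA on either side of the targeted gene is inherited with it, so neighbouring genes can carry the alleles of the embryonic stem cells in which the targeting was done. The strain of those cells was not given in the sources used here, and no genotype was measured at the neighbours. In these 10 mice, the deletion and any linked DNA cannot be told apart.

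Depth ran from 14990474 to 19822673 reads per library. Dusp6 checked the labels: its level was 0.428, 0.624, 0.458, 0.383 and 0.308 FPKM in the 5 DUSP6 KO mice and 19.4, 24.0, 19.4, 16.6 and 17.7 FPKM in the 5 WT mice. The defining markers of spleen B cells, T cells and red pulp macrophages were all detected. Some libraries stood apart in their markers of other cells. The summed level of 6 exocrine pancreas markers was 9.52 to 26.2 FPKM in DUSP6 KO against 13.3 to 12642 in WT, the highest being WT replicate 67. The 5 mature neutrophil markers summed to 403 to 1381 FPKM in DUSP6 KO against 898 to 3305 in WT, highest in WT replicate 77. The 5 erythroid markers summed to 17560 to 89893 FPKM in DUSP6 KO against 21874 to 42966 in WT, highest in DUSP6 KO replicate 73. No marker of these 6 lists was at 0 in all libraries. In bulk spleen, fewer cells of a type and less RNA per cell cannot be told apart.

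Along the window, 62 members lay on the centromeric side of Dusp6 (lower coordinates) and 18 on the telomeric side. They comprised 46 protein-coding genes, 11 lincRNAs, 5 miRNA hairpins, 4 antisense transcripts, 3 processed pseudogenes, 3 unclassified transcripts awaiting experimental support, 2 transcripts from bidirectional promoters, 2 snRNAs, 2 snoRNAs, 1 rRNA and 1 further small RNA. The spans of 54 members overlapped that of another gene. Reads were not stated to be counted by strand, so overlapping members share an uncertainty. At most 10 reads were counted in every library for 12 members.

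Genotype was compared with limma on log2(FPKM + 0.1) over all 21296 genes, with Benjamini-Hochberg adjusted p. A fold change is therefore on the log2(FPKM + 0.1) scale, which understates the change of genes near 0. Only 1 of the 80 members, the antisense transcript Gm15915, reached an adjusted p of 0.05, where 0.0704% of all genes tested did. At an unadjusted p under 0.05 there were 8 members (10%), against 5.66% of all genes tested. Of these, Hal and Pawr were higher in DUSP6 KO (all genes higher: 2.62%), while Gm15915, Cep83os, Cdk17, Fgd6, Nr2c1 and Nts were lower (all genes lower: 3.03%). The 5 DUSP6 KO values and the 5 WT values did not overlap for 5 members (6.25%, against 1.11% of all genes tested): Gm15915, Cep83os and Nr2c1 were below WT, and Hal and Pawr were above. Hal met the minimum level only through DUSP6 KO, where it is high, so the rule itself favoured its place in both counts. The same holds for every later count or share that includes Hal. The members were evenly divided in direction, with 40 higher and 40 lower and a median log2 fold change of 0.0012. Their median absolute log2 fold change was 0.227, against 0.152 over all genes tested. Where the mean was 1 FPKM or more, these medians were 0.126 for 47 members and 0.104 for all 13422 such genes.

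The promoters of 4 of the 5 members without overlap are shown. That of Nr2c1, whose means differed least, is not printed, and its window held 27 CG pairs at 63.3% GC. Sequences are from RefSeq (GRCm38.p6), 5′ to 3′ on the strand of the gene. Of the 80 members, 46 had a promoter there. For Gm15915 (minus strand, chr10:93683323-93683572) and Hal (plus strand, chr10:93488518-93488767) the 250 bases before the start are given with every CG in capitals. Pawr (plus strand, chr10:108331939-108332188) is shown by 250 bases marked in the same way. They run past its annotated gene start of 108332121, so the last of them lie inside the gene. For Cep83os (minus strand, chr10:94688564-94688863) the window of 300 bases is given, and capitals mark the 77 bases between the annotated starts of Cep83os and of Cep83, which is read from the other strand.
Gm15915: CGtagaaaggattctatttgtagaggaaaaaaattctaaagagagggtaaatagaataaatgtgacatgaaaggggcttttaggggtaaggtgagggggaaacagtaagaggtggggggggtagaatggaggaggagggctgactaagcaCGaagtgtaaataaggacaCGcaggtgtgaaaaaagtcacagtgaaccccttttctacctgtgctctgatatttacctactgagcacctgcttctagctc
Cep83os: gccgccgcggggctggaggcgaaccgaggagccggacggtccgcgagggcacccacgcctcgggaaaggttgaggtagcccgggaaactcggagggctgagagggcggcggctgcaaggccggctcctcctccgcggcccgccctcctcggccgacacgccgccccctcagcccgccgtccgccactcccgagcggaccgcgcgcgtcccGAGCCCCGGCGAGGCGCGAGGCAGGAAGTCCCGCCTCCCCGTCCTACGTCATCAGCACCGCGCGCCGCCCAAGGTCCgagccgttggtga
Hal: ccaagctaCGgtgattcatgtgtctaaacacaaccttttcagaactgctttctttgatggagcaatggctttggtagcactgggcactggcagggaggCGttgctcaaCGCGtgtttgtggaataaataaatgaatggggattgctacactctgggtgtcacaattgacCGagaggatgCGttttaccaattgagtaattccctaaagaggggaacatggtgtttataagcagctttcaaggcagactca
Pawr: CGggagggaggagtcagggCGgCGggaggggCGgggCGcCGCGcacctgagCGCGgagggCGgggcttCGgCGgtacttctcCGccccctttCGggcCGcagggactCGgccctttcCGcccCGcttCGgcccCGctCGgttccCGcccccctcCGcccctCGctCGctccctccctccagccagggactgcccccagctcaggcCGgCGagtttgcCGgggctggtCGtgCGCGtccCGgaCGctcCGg
The full windows of 300 bases differed in base composition. That of Gm15915 held 5 CG pairs at 46.7% GC, where the median over 32851 promoters was 7 CG pairs and 52.7% GC. The Cep83os window held 46 CG pairs at 76.7% GC, and 1.65% of all promoters had as many. Pawr had 36 CG pairs and Hal 7. The letters TATAAA, searched on both strands, were present in the Hal window, as in 13.6% of all promoters, and were not in the windows of Gm15915, Cep83os and Pawr.

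Gm15915 was the largest change among the 80 members. It is an antisense transcript at 93674218 to 93683322 on the minus strand, 5.59 Mb centromeric of Dusp6, and lies within the span of Ntn4 with 0 exon bases in common. Its level was 0.177, 0.113, 0.150, 0.407 and 0.465 FPKM in DUSP6 KO (2 to 8 reads) and 9.66, 6.52, 10.3, 13.2 and 8.60 FPKM in WT (113 to 200 reads). Every WT mouse was far above every DUSP6 KO mouse, and the DUSP6 KO mean of 0.262 ± 0.161 (SD, n = 5) was 2.71% of the WT mean of 9.68 ± 2.47 FPKM. The log2 fold change was -4.83 ± 0.30 (SE), with an adjusted p of 4.5e-05 by limma. The exact two-sided permutation p was 0.0079, the smallest that 5 mice against 5 can give. Any gene whose groups do not overlap has this p, so it restates the lack of overlap and is no separate test. The same holds for Cep83os, Pawr and Nr2c1. Its host Ntn4, a secreted netrin of basement membranes, ranged from 3.81 to 8.14 FPKM in DUSP6 KO and from 6.08 to 8.12 FPKM in WT. These groups overlapped, and Ntn4 had a log2 fold change of -0.36 (95% interval -0.75 to 0.03, exact permutation p = 0.13).

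Cep83os was the second largest of the differences without overlap. It begins 77 bases from Cep83, a gene for a protein of the centriole's distal appendages, and is read in the opposite direction from 94688576 to 94671025, with its start coordinate 4.59 Mb centromeric of Dusp6. It had 0.171, 0.674, 0.156, 0.612 and 0.441 FPKM in DUSP6 KO and 2.00, 2.29, 2.01, 2.13 and 1.57 FPKM in WT. The lowest WT mouse was above the highest DUSP6 KO mouse. The DUSP6 KO mean was 20.5% of the WT mean, with a log2 fold change of -2.18 ± 0.33 (SE), an adjusted p of 0.061 by limma and an exact permutation p of 0.0079. By voom, the weighted limma test run on read counts recovered from the FPKM values, its adjusted p was 0.020, where 0.0704% of all genes tested were called by that method. Without DUSP6 KO replicate 21, its adjusted p by limma was 0.029, where 32 of 21296 genes were called, against 15 with all mice. Leaving out any other single mouse gave an adjusted p of 0.064 to 0.21. Cep83, on the other side of the 77 bases, had 4.09 to 5.39 FPKM in DUSP6 KO against 2.82 to 4.41 in WT. Its groups overlapped, with a log2 fold change of 0.25 (95% interval -0.05 to 0.54, exact permutation p = 0.079). Cep83os shares 344 exon bases with Gm49167, an unclassified transcript on the other strand with means of 0.227 FPKM (DUSP6 KO) and 0.316 FPKM (WT).

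**Figure D1:**
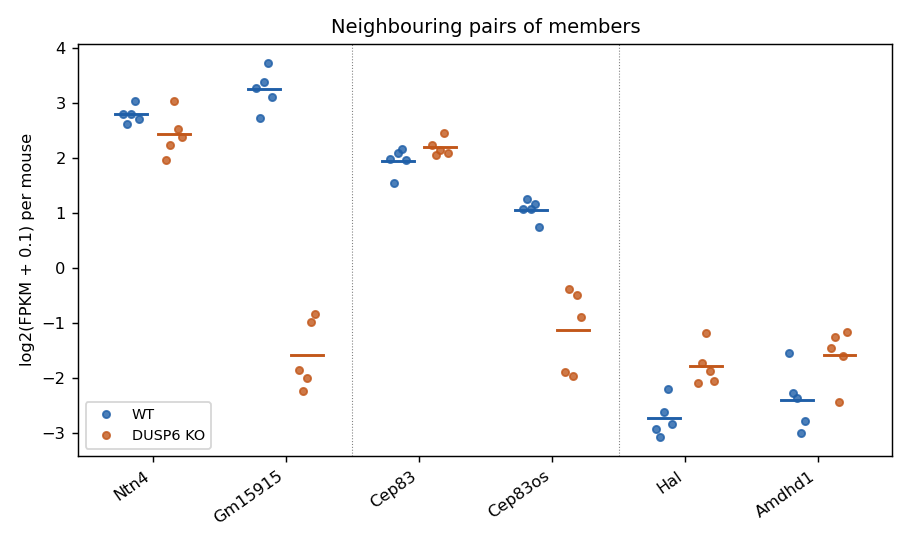
Level of 3 pairs of neighbouring members in each mouse, as log2(FPKM + 0.1), for 5 WT (blue) and 5 DUSP6 KO (orange) mice; bars are group means. Gm15915 and Cep83os were lower in every DUSP6 KO mouse, while Ntn4 and Cep83 overlapped between the groups.

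Hal and Amdhd1 are neighbours that encode enzymes of histidine breakdown, histidine ammonia-lyase and imidazolonepropionase. Hal had 0.135, 0.204, 0.344, 0.175 and 0.141 FPKM in DUSP6 KO (13 to 28 reads) and 0.0316, 0.0189, 0.0627, 0.119 and 0.0402 FPKM in WT (2 to 11 reads). All DUSP6 KO mice were above all WT mice, and the ratio of means was 3.67. The log2 fold change of Hal was 0.95 ± 0.32 (SE), with a limma p of 0.013 and an adjusted p of 0.71. Amdhd1 had 0.0846 to 0.349 FPKM in DUSP6 KO against 0.0248 to 0.242 in WT, with a log2 fold change of 0.81 (95% interval -0.02 to 1.63, exact permutation p = 0.056).

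Pawr, a pro-apoptotic regulator, lay 9.07 Mb telomeric of Dusp6. It had 5.80, 6.69, 7.43, 7.96 and 6.39 FPKM in DUSP6 KO and 3.65, 3.06, 5.52, 4.48 and 5.37 FPKM in WT. The highest WT mouse was below the lowest DUSP6 KO mouse, and the DUSP6 KO mean was 1.55 times the WT mean. Its log2 fold change was 0.65 ± 0.17 (SE), with a limma p of 0.0028, an adjusted p of 0.45 and an exact permutation p of 0.0079.

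Cdk17, Fgd6 and Nr2c1, coding genes of the same stretch as Gm15915, had smaller differences, none past the adjusted threshold. Fgd6 ends at 94145339 and Nr2c1 starts at 94148023, with no member between them, while Cdk17 lies apart. By start, the tested coding genes between Cdk17 and Gm15915 went both ways. Lower were Elk3 (log2 fold change -0.06), Ccdc38 (-0.31), Ntn4 (-0.36) and the left-out Lta4h (-0.71) and Snrpf (-0.56). Higher were Hal (0.95) and Amdhd1 (0.81). Ccdc38, at 9 to 23 reads, shares 567 exon bases with the far more abundant Snrpf (mean 34.1 FPKM) on the other strand. Metap2 (0.11) and Vezt (-0.08) lie between Gm15915 and Fgd6. Fgd6 had 2.33 to 3.12 FPKM in DUSP6 KO against 2.87 to 4.19 in WT (log2 fold change -0.39, exact permutation p = 0.016, limma adjusted p = 0.63). Nr2c1, an orphan nuclear receptor, had 1.86 to 2.33 FPKM in DUSP6 KO against 2.44 to 2.72 in WT (log2 fold change -0.23, exact permutation p = 0.0079, limma adjusted p = 0.87). Nr2c1 did not overlap between the groups although its means differed by only 1.18 times. Cdk17, a cyclin-dependent kinase, had 9.08 to 10.9 FPKM in DUSP6 KO against 10.3 to 13.5 in WT (log2 fold change -0.24, exact permutation p = 0.016, limma adjusted p = 0.77). Cdk17 shares 316 exon bases with Elk3 on the other strand. On the far side of Dusp6, Nts, the precursor of neurotensin, had 0 to 0.242 FPKM in DUSP6 KO against 0.186 to 0.578 in WT, from at most 12 reads (log2 fold change -1.05, exact permutation p = 0.024, limma adjusted p = 0.77).

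**Figure D2:**
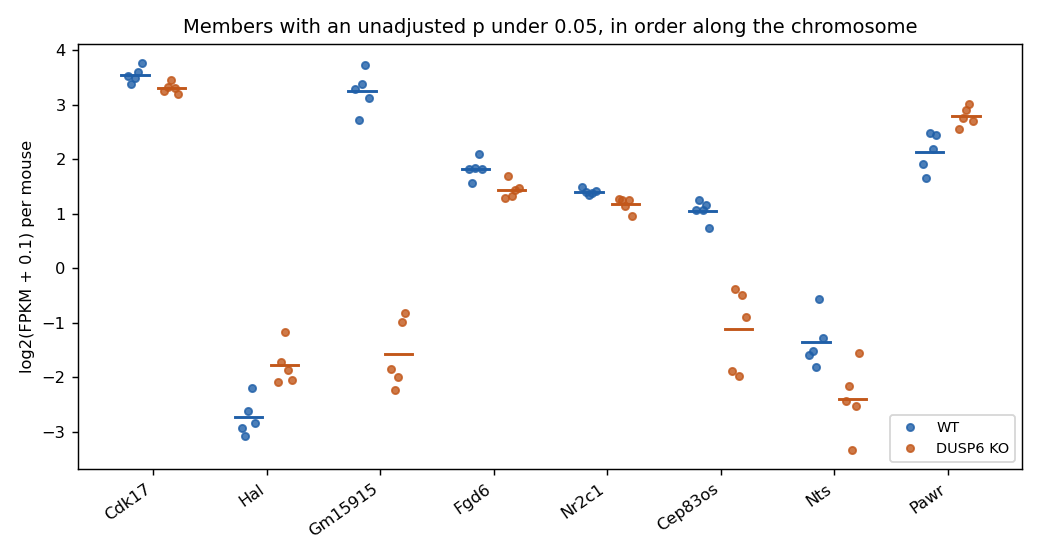
Level in each mouse, as log2(FPKM + 0.1), of the 8 members with an unadjusted p under 0.05, for 5 WT (blue) and 5 DUSP6 KO (orange) mice, with group means as bars. The groups are farthest apart for Gm15915 and Cep83os, and they overlap for Cdk17, Fgd6 and Nts.

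The members nearest to Dusp6 showed no call. None of the 15 members within 2.5 Mb reached an unadjusted p under 0.05 by limma, and none separated the groups. Over all genes tested these shares were 5.66% and 1.11%, so 0 of 15 does not set these members apart. Lum, which the rule left out, lies 1.70 Mb from Dusp6. It reached that p and separated the groups, so this count of 0 holds for the members and not for every gene near Dusp6. For 9 of these 15 the 95% interval of the difference stayed within 2-fold. On the centromeric side the 5 nearest were Gm16239, Phxr2, Galnt4, Poc1b and Gm48768. Galnt4, which starts mucin-type O-glycosylation, had 3.65 to 4.81 FPKM in DUSP6 KO against 4.15 to 5.70 in WT (log2 fold change -0.12, 95% interval -0.39 to 0.15). The centriole gene Poc1b had 4.84 to 6.47 FPKM in DUSP6 KO against 4.87 to 8.11 in WT (log2 fold change -0.15, 95% interval -0.46 to 0.17). Poc1b shares 420 exon bases with Galnt4 and 841 with Gm48768. Gm16239 and Phxr2 were at 17 reads or fewer in every library, with log2 fold changes of -0.30 and 0.76. Gm48768 averaged 1.03 FPKM (DUSP6 KO) and 1.12 FPKM (WT). On the telomeric side the 5 nearest were Gad1-ps, Gm35035, Gm34983, AC167229.1 and Gm22918, with log2 fold changes from -0.28 to 0.67 and wide intervals. AC167229.1 had the largest of these, with 0.607 to 1.98 FPKM in DUSP6 KO against 0.260 to 1.16 in WT (exact permutation p = 0.13). Atp2b1, the plasma membrane calcium pump and the next coding gene on the centromeric side, had 5.70 to 8.31 FPKM in DUSP6 KO against 5.76 to 7.49 in WT (log2 fold change -0.07, 95% interval -0.33 to 0.19).

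**Figure D3:**
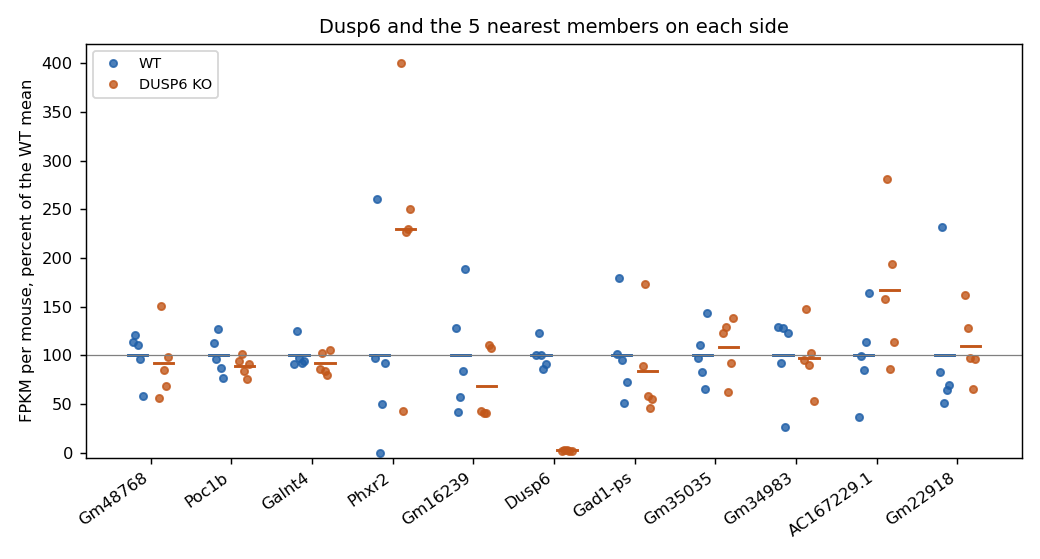
Level of Dusp6 and of the 5 nearest members on each side in each mouse, in percent of the WT mean FPKM, for 5 WT (blue) and 5 DUSP6 KO (orange) mice, with group means as bars. Dusp6 was at 2.26% of WT, while each of the 10 neighbours overlapped between the groups.

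Among the members, the differences were not ordered by distance from Dusp6. The members at an unadjusted p under 0.05 numbered 0 of 15 at 0 to 2.5 Mb, 2 of 25 at 2.5 to 5 Mb, 5 of 23 at 5 to 7.5 Mb and 1 of 17 at 7.5 to 10 Mb. Hal, which met the minimum level only through DUSP6 KO, is among the 5 at 5 to 7.5 Mb. Farther along chromosome 10 the share was 6.94% of 288 genes at 10 to 20 Mb and 5.70% of 649 genes beyond 20 Mb, and it was 5.60% of 20272 genes on other chromosomes. The median absolute log2 fold change in the same 4 classes of members was 0.146, 0.310, 0.230 and 0.0895. Where the mean was 1 FPKM or more, it was 0.136, 0.141, 0.141 and 0.0670, so the peak at 2.5 to 5 Mb was not seen there. Across the 80 members, the correlation of distance with absolute log2 fold change was 0.030 (Pearson) and -0.080 (Spearman), a description over genes that share libraries and differ in depth. From Cdk17 to Cep83os, a segment chosen after its values were seen, 6 of 21 members were at an unadjusted p under 0.05, and the 59 members outside it had 2. Hal is also among the 6 of this segment. The nearest tested genes beyond the window, Utp20 at 10.5 Mb on the centromeric side and Nav3 at 10.4 Mb on the telomeric side, had log2 fold changes of -0.0082 and 0.020. Farther out, 2 of the 288 genes at 10 to 20 Mb were called by limma, where 0.0704% of all genes tested were. They were Tdg at 16.6 Mb (log2 fold change -2.16, adjusted p 4.5e-05) and Lyz1 at 18.0 Mb (2.26, adjusted p 0.0095). Of the 649 genes beyond 20 Mb, 2 were called. The groups did not overlap for 2.43% of genes at 10 to 20 Mb and 1.39% beyond 20 Mb, against 1.11% of all genes tested.

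**Figure D4:**
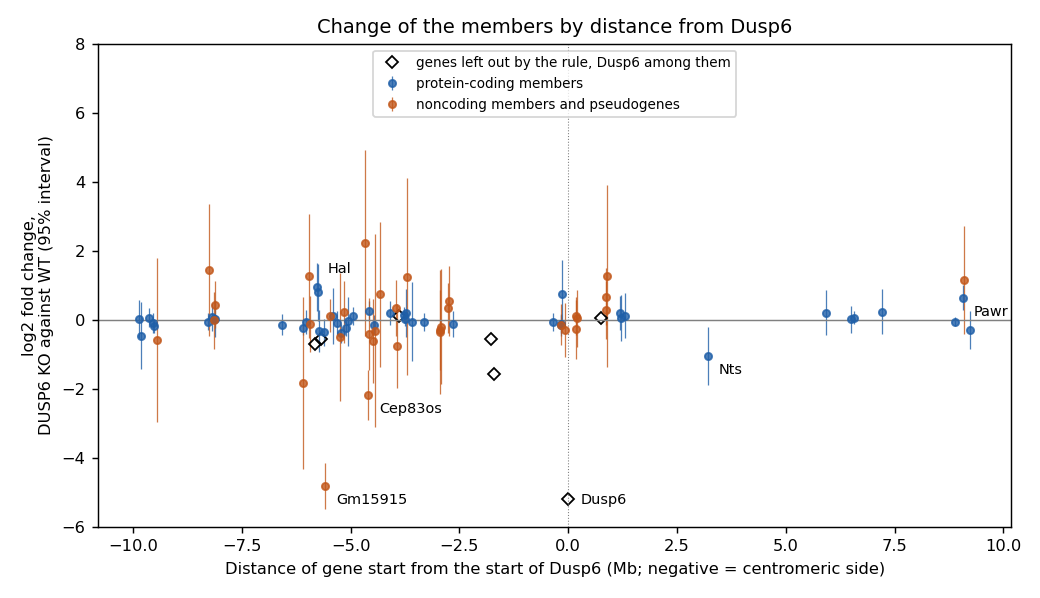
log2 fold change of each member (DUSP6 KO against WT) with its 95% interval by distance of its start from Dusp6 in Mb, negative toward the centromere, for coding (blue) and noncoding (orange) members; open diamonds are genes left out by the rule. Gm15915 at -5.59 Mb is the member farthest from 0. The 15 members within 2.5 Mb of Dusp6 have no unadjusted p under 0.05, which 5.66% of all genes tested have.

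**Figure D5:**
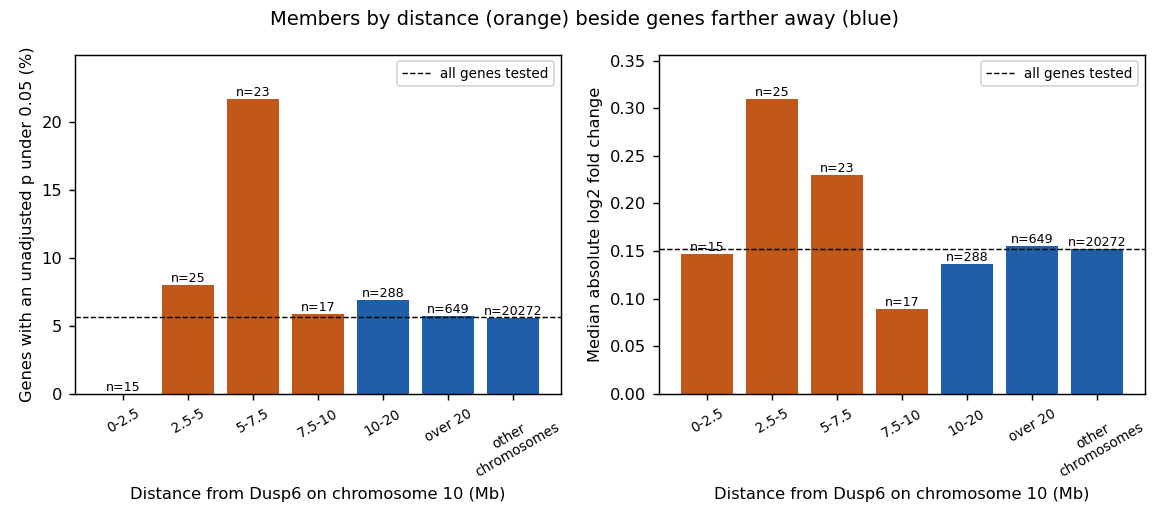
Share of genes with an unadjusted p under 0.05 (left, %) and median absolute log2 fold change (right) by distance from Dusp6, members in orange and genes farther away in blue, with n above each bar and a dashed line for all genes tested. The share was 0% within 2.5 Mb and 21.7% between 5 and 7.5 Mb, where Hal, favoured by the rule, was counted.

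Some genes left out by the rule also differed, so the counts above are not counts over the whole window. Lta4h, which encodes the enzyme that makes leukotriene B from its precursor and lies 5.81 Mb centromeric of Dusp6, was lower in DUSP6 KO (9.01 to 11.1 FPKM) than in WT (14.3 to 20.2 FPKM), with a log2 fold change of -0.71 and an adjusted p of 0.032 by limma. Snrpf, a spliceosome protein gene, and Lum, the matrix proteoglycan lumican, had log2 fold changes of -0.56 and -1.57 with unadjusted p of 0.030 and 0.0030. The groups did not overlap for Lum, whose DUSP6 KO mean was 17.7% of the WT mean, nor for Lta4h. With the left-out neighbours put back, 11 of 86 genes were at an unadjusted p under 0.05 and 7 of 86 had no overlap, where the shares over all genes tested were 5.66% and 1.11%.

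The 5 most abundant members showed no difference larger than the spread between mice. Btg1, an antiproliferative gene, ranged from 69.9 to 115 FPKM among DUSP6 KO mice and from 76.3 to 128 FPKM among WT mice. Slc25a3, the mitochondrial phosphate carrier, had the tightest values, with a mean of 73.7 ± 3.89 FPKM (SD, n = 5) in DUSP6 KO against 71.9 ± 3.48 in WT and a 95% interval of the log2 fold change from -0.11 to 0.18. Nudt4, an inositol pyrophosphate hydrolase, Metap2, a methionine aminopeptidase, and Tmpo, a nuclear lamina protein, varied more within a group than between groups. Nudt4 ranged from 35.8 to 106 FPKM in DUSP6 KO and from 31.3 to 81.0 FPKM in WT, and Metap2 from 22.0 to 84.9 and from 22.4 to 64.0 FPKM. Nudt4, Metap2 and Tmpo were each highest in DUSP6 KO replicate 73, the library with the highest erythroid sum, whose part in their levels was not tested.

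By function, the coding members formed groups in which 0 to 2 genes passed an unadjusted p under 0.05, and 0 of the 46 coding members passed the adjusted threshold by limma. An unadjusted p under 0.05 was reached by 5.09% of all coding genes tested, and no group was tested against that share. In the list of centrosome and cilium genes, log2 fold changes ran from -0.31 (Ccdc38, whose exons overlap those of Snrpf) to 0.25 (Cep83). Poc1b and Cep290 lay between. Ccdc59, which was on that list but is known as a nuclear protein gene, had 0.07, and 0 of the 5 passed by limma. Of 6 genes of cell death and growth control, Pawr was higher and 5 did not pass. Among those, the apoptosome scaffold Apaf1 had means of 6.03 FPKM in DUSP6 KO against 6.24 in WT, and the death domain adaptor Cradd had 1.17 and 0.987 FPKM. Of 7 mitochondrial and metabolic genes only Hal passed, and the median log2 fold change was 0.11. Of 6 genes for transcription and nuclear proteins, Cdk17 and Nr2c1 were lower and 4 did not pass, with a median of -0.16. Nr1h4, the bile acid receptor, was scarce in spleen, with means of 0.0810 FPKM (DUSP6 KO) and 0.144 FPKM (WT). Of 7 genes of ubiquitin, endosomes and membrane traffic, Fgd6 was lower, and Uhrf1bp1l had means of 5.72 and 6.48 FPKM in DUSP6 KO and WT (exact permutation p = 0.056). Of 5 genes of adhesion, guidance and the cell surface, Nts was lower, and the semaphorin receptor Plxnc1 had means of 12.3 and 13.6 FPKM. The glycosylation genes Galnt4, Tmtc3 and Tmtc2 had log2 fold changes of -0.12, 0.19 and 0.21, and Tmcc3, a coiled-coil membrane protein gene listed with them that is not a glycosylation enzyme, had 0.11. Among 4 genes of myosin phosphatase and actin, Fgd6 was counted again, and Ppp1r12a, the targeting subunit of myosin phosphatase, averaged 16.8 ± 1.01 FPKM among DUSP6 KO mice and 17.4 ± 0.558 among WT mice (SD, n = 5).

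The 34 noncoding members and pseudogenes had larger and less certain differences than the 46 coding members. Their median absolute log2 fold change was 0.425, against 0.374 over all 6925 tested genes that are not protein-coding, while the coding members had 0.133 against 0.108 over all coding genes. At an unadjusted p under 0.05 there were 2 of 34 noncoding members and 6 of 46 coding members (13.0%). Hal, favoured by the rule, was among these 6. The share was 6.83% of all tested genes that are not protein-coding and 5.09% of all coding genes, so the noncoding share of 5.88% was near its background. Gm25390, Mir7211 and Gm23105 had 0 reads in all 5 WT libraries and at most 9 reads in any DUSP6 KO library, so their differences rest on a few reads in 2 mice each. The 95% interval of the difference lay within 2-fold for 39 of the 46 coding members and for 45 of all 80, and it lay within 1.5-fold for 27.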

How the data were processed

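Poly(A) RNA of 10 spleens (5 DUSP6 KO, 5 WT) was sequenced as paired ends. The authors used Hisat2 for alignment and featureCounts 1.5.0-p3 for counting, and deposited FPKM values (fragments per kilobase of gene, scaled to depth). The submitters' processing notes name build hg38, which cannot apply to mouse. Coordinates matched GENCODE M21 (GRCm38) for 98.3% of rows and for all 80 members. Neither the strand setting nor whether the library was directional was given. FPKM multiplied by gene length gave whole reads for 100% of values, from 14990474 to 19822673 reads per library. The tolerance was 0.001 read or, for deep genes, the rounding of the deposited value.

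The study tested counts on genotype alone. Here, limma 3.58.1 (R 4.3.3; lmFit, eBayes with trend) was fitted on log2(FPKM + 0.1) for 21296 genes averaging 0.1 FPKM or more. The threshold was a Benjamini-Hochberg adjusted p of 0.05. Single members were also compared with a two-sided exact permutation test of mean FPKM over 252 splits. The fit was tested on simulated data. Nothing says that litters or batches were shared, and p-values weigh the group difference against the spread between these mice. DUSP6 KO and WT mice were bought as separate strains, so these p-values cannot tell genotype and strain apart.

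The members and gene lists were chosen with earlier results of these data known. Genes named were those called, up to 10 of lowest p without overlap, the 5 nearest to Dusp6 on each side, the 5 of highest mean, and up to 4 per functional group by p. Others (Cep290, the genes with 0 WT reads, and those at the edges of the rule) were added after their values were seen. Other pseudocounts, minimums, scalings, fits, member sets and each mouse left out were tried as alternatives.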

Additional observations from a re-analysis of the deposited data

Results flagged for a closer look

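In 4 of 84 groups of 5 mice, 1 mouse lay farther from the others than Dixon's critical value of 0.71 allows, and chance gives about 1 in 20. WT replicate 67 was the highest WT mouse for Galnt4 (5.70 FPKM, the others 4.15 to 4.45) and for the miRNA hairpin Gm22918 (11.9 FPKM, the others 2.64 to 4.25). This library also had the highest exocrine pancreas sum, whose part in both values was not tested. Without it the log2 fold change was -0.039 for Galnt4 and 0.65 for Gm22918, where the unadjusted limma p was 0.027 and the adjusted p 0.85. DUSP6 KO replicate 03 was the highest DUSP6 KO mouse for Syt1, a synaptic vesicle protein gene (0.586 FPKM, the others 0.327 to 0.399). DUSP6 KO replicate 21 was the highest for Atp2b1 (8.31 FPKM, the others 5.70 to 6.42). None of these 4 genes reached an unadjusted p under 0.05 with all mice.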

How the results depend on the processing

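Gm15915 was called under all 19 alternatives fitted to it, with log2 fold changes from -5.32 to -3.06. Cep83os was called under 4 of 19 (a pseudocount of 1, quantile normalization, voom and without DUSP6 KO replicate 21), and its adjusted p ranged from 0.010 to 0.21, so its call here depends on the setting. The study's own test, run on counts, listed Cep83os with its most significant lower genes. The number of called members was 2 with a pseudocount of 1, quantile normalization, voom, or the left-out neighbours put back (Lta4h), and 0 with members that overlap another gene removed, coding members alone or a window of 5 Mb. Leaving out 1 mouse gave 1 to 2, with 2 only without DUSP6 KO replicate 21. At an unadjusted p under 0.05 there were 2 of the 26 members that overlap no other gene, and 2 of 40 in the 5 Mb window. The share of all genes tested was 5.66%. The groups did not overlap for 1 of those 26, 1 of those 40 and 3 of 46 coding members. That share was 1.11% of all genes tested and 1.26% of all coding genes. Hal, favoured by the rule, was the 1 of those 26 and among the 3 coding members. The median absolute log2 fold change was 0.105 with a pseudocount of 1, against 0.0925 over all genes tested in that setting. It was 0.126 with a minimum of 1 FPKM (all such genes 0.104), 0.124 without overlapping members and 0.133 for coding members (all coding genes 0.108). These last 3 sets hold fewer members. For 6 of 42 named genes, all with an absolute log2 fold change of at most 0.193, the sign changed. With 1 mouse left out the log2 fold change ran from -0.020 to 0.29 for Gm35035, -0.28 to 0.20 for Gm34983, -0.033 to 0.37 for Nudt4, -0.15 to 0.34 for Metap2, -0.13 to 0.16 for Tmpo and -0.13 to 0.15 for Gas2l3, and Gm34983 was at -0.0045 with a pseudocount of 1. A minimum of 1 FPKM gave no value for members under it. No paired analysis was possible because the groups share only the replicate number 73. Depth limits the 12 members with at most 10 reads in every library.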
